A study of Mus musculus with 9 samples.

Results

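Described here are 10 genes with some of the largest falls in circulating LSK cells: Abcg3, Pdgfd, Sema3d, Npdc1, Axl, Tle2, Nap1l3, Bgn, Slc16a9 and Lhcgr. They are 10 of the 14461 genes of the table, picked by hand from the genes with the largest falls in circulating cells, so their low level in those cells is the reason for their choice and not a result. LSK cells are marrow cells that lack lineage markers and carry Sca-1 and c-Kit, a fraction that holds the stem cells and the earliest progenitors of blood. All libraries came from marrow of parabiotic mice, animals joined by surgery so that blood cells pass from one partner to the other. Circulating cells are, by the design text, those that had reached the marrow of an irradiated partner through the blood. The groups were circulating LSK cells (strain label C57BL/6), irradiated LSK cells (C57BL/6) and endogenous LSK cells (B6SJL CD45.1), with 3 libraries each. The mice were specific pathogen free, and the labels give no age or radiation dose. The strain label changes together with the group in every comparison with endogenous cells, so strain and group cannot be told apart there. Since circulating cells came through the blood, their strain label could name the cells or the marrow they had reached. Which of these holds was not resolved here, so strain may also differ between circulating and irradiated cells. By title, each circulating library shares a code with the irradiated library of the same number (DD codes), and the endogenous libraries carry another code (SJ); what the codes stand for is not stated. The labels do not state whether replicate libraries stem from different mice, so p-values measure the spread among these samples alone, and that spread may be technical.

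In adult marrow, the most primitive cells divide rarely and carry transcripts for receptors, matrix proteins and transporters that are turned down as cells commit to a lineage. Groups of such transcripts are used as signatures of stem cells. The 10 genes here share no gene family and no single pathway: they encode secreted ligands and matrix (Pdgfd, Sema3d, Bgn), receptors (Axl, Lhcgr), transporters (Abcg3, Slc16a9), nuclear proteins (Tle2, Nap1l3) and a membrane protein first described in neural cells (Npdc1).

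Depth was 14065855 to 27012345 estimated counts per library, lowest in circulating replicate 2. A value is an estimated count divided by a scaled library size, so 1 count is worth 0.036 to 0.075 depending on the library, and 3 counts, the limit that a count of 0 allows, 0.11 to 0.23. These limits cover counting error only. The markers of the sort were present in all groups. Ly6a, which encodes Sca-1, was 137 ± 9.21 in circulating cells, 174 ± 23.9 in irradiated and 180 ± 12.8 in the endogenous cells (SD, n = 3). Kit was 379 ± 45.1, 587 ± 31.3 and 878 ± 137 (SD, n = 3) in the same order and was lower in circulating than in endogenous cells (log2 difference -1.20 with SE 0.13; adjusted p = 0.0026 in limma). Because these are bulk libraries, fewer cells with a transcript and less transcript per cell cannot be told apart.

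Mean values in circulating cells were 5.61% (Pdgfd) to 20.8% (Nap1l3) of those in endogenous cells, with a median of 11.3% over the 10 genes. In irradiated cells they were 15.3% (Sema3d) to 87.3% (Slc16a9), with a median of 43.0%. The log2 difference between circulating and endogenous cells, on the log2(value + 1) scale, ran from -3.67 (Abcg3) to -2.42 (Slc16a9). That made them 10 of the 32 largest falls of 13771 tested genes. Just inside stood Slc16a9 at -2.42, and the next gene outside was Scml2 at -2.39. Genes with falls as large but not among the 10 included Ndn (-3.31) and Gucy1a1 (-2.64). Of the tested genes 3.3% were called lower in this comparison, 8.63% in either direction, and 12.9% had every circulating library below every endogenous one. The 10 genes did both by choice. All 10 passed the filter on low values (at least 1 in at least 3 libraries), and the endogenous libraries alone were enough for each of them to pass. Tle2 was the only one at or above 1 in all 3 circulating libraries.

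**Figure D1:**
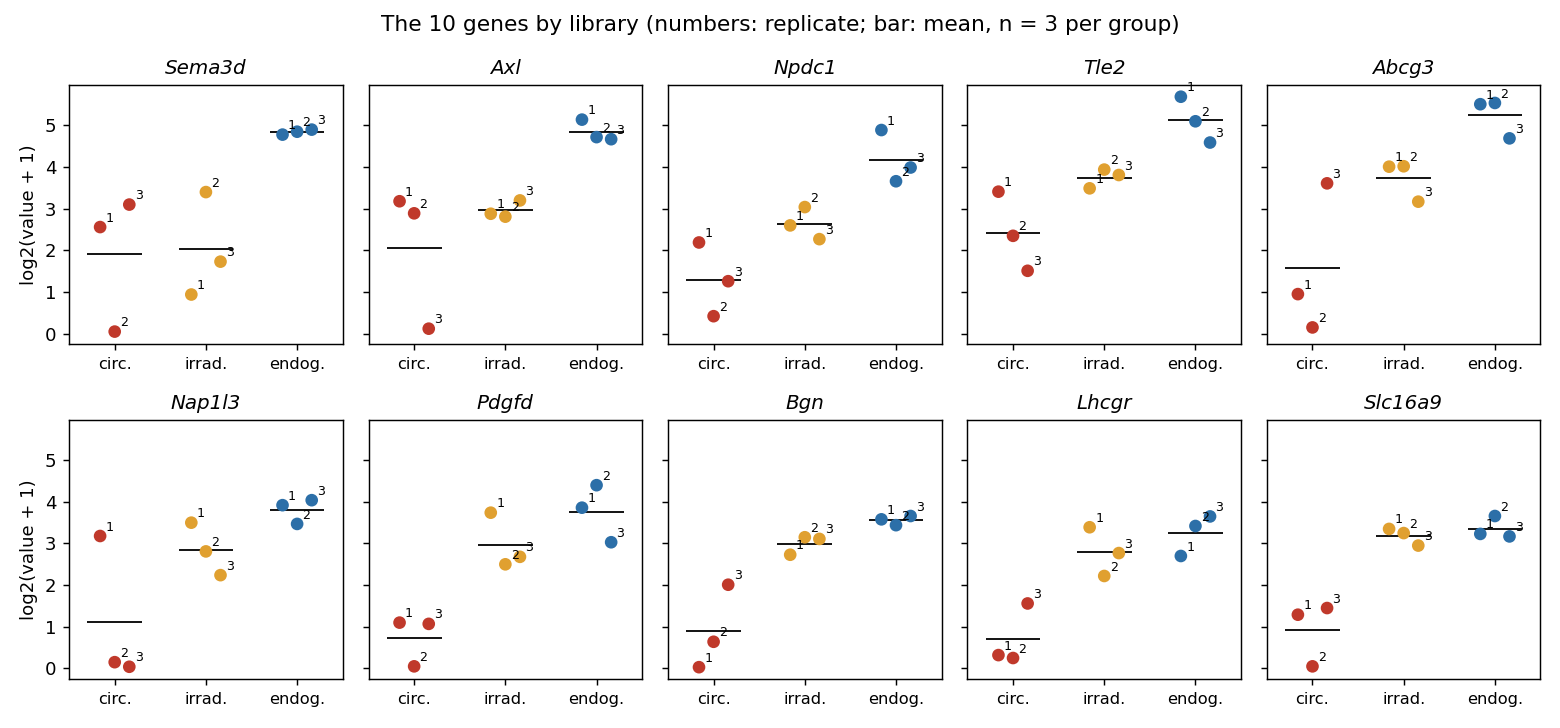
Each panel shows 1 gene, with log2(value + 1) on the vertical axis and 1 point per library in circulating (red), irradiated (yellow) and endogenous (blue) cells. Panels run from Sema3d, whose irradiated mean lay near the circulating one, to Slc16a9, whose irradiated mean lay near the endogenous one. Circulating libraries spread most, and in Sema3d, Axl, Abcg3 and Nap1l3 1 circulating library stood far from the others.

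To show what lies before the start sites of genes with different places of irradiated cells, the 250 bases upstream of the RefSeq start (GRCm38.p6, 5′ to 3′ on the strand of the gene) are given for a pair with irradiated cells nearer to circulating cells, Sema3d (chr5:12382916-12383165, plus strand) and Axl (chr7:25788734-25788983, minus strand), and a pair with irradiated cells nearer to endogenous cells, Pdgfd (chr9:6168236-6168485, plus strand) and Bgn (chrX:73483351-73483600, plus strand). Capitals mark matches to the motifs listed after them.
Sema3d: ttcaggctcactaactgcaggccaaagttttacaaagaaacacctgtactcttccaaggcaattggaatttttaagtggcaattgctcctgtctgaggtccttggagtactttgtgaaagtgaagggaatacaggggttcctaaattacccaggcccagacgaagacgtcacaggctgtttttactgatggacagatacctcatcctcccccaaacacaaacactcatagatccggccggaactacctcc
Axl: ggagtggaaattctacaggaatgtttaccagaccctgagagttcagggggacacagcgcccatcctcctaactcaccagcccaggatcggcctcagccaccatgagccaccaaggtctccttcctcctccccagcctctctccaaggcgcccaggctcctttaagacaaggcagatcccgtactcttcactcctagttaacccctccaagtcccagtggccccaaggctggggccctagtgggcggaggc
Pdgfd: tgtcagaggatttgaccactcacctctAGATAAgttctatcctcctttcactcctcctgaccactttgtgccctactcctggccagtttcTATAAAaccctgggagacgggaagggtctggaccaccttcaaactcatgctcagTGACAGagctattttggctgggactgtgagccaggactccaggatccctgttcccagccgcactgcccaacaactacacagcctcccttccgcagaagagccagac
Bgn: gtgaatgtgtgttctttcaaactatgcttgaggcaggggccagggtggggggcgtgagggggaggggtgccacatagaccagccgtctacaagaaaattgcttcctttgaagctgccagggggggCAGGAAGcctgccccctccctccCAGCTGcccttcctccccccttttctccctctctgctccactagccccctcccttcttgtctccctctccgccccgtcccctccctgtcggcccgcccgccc
Motifs were searched on both strands: a TATA box spelled TATAAA, a RUNX motif spelled TGTGGT, the motif of GATA factors spelled AGATAA, an ETS motif spelled CAGGAAG, an E-box spelled CAGCTG, a MEIS motif spelled TGACAG and an HLF motif spelled TTACNTAA. The Pdgfd window held the TATA box and the GATA factor and MEIS motifs, and the Bgn window the ETS motif and the E-box, while those of Sema3d and Axl held none of the 7. Over all 10 genes, the MEIS motif was found in 2 windows (Pdgfd and Nap1l3), the HLF motif in 0 and each of the others in 1. Of 32851 windows of the same length upstream of RefSeq starts, 15.9% held the MEIS motif, 14% the RUNX motif, 13% the E-box, 12.4% the TATA box, 10.8% the ETS motif, 9.99% the GATA factor motif and 2.06% the HLF motif. A match is a run of letters, not a measured site. Their windows had a median G and C content of 60.8% and 3 to 21 CpG dinucleotides (median 8), beside 52.4% and a median of 6 over all windows.

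Secreted proteins come first. Pdgfd encodes platelet-derived growth factor D, a secreted ligand of PDGF receptor beta, and lies on chromosome 9 from 6168584 to 6378850 (GRCm38, plus strand, ENSMUSG00000032006). It was 1.15, 0.0376 and 1.10 in circulating replicates 1, 2 and 3, 12.4, 4.65 and 5.39 in irradiated and 13.5, 20.2 and 7.19 in endogenous cells. The lowest circulating value is a count of 0. Irradiated and endogenous libraries overlapped (log2 difference -0.79 with SE 0.49; adjusted p = 0.50 in limma), whereas every circulating library lay below both groups.

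Bgn encodes biglycan, a small leucine-rich proteoglycan of the extracellular matrix (chromosome X from 73483602 to 73495933, plus strand, ENSMUSG00000031375). Its values were 0.0226, 0.563 and 3.03 in circulating, 5.62, 7.86 and 7.64 in irradiated and 11, 9.84 and 11.6 in the endogenous cells. No library of a group overlapped with another group, in the order circulating, irradiated, endogenous. The step from irradiated to endogenous cells was small and did not pass the test (log2 difference -0.56 with SE 0.47; adjusted p = 0.64 in limma).

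Sema3d encodes a secreted class 3 semaphorin, a guidance cue read by neuropilin and plexin receptors (chromosome 5 from 12383385 to 12588948, plus strand, ENSMUSG00000040254). It was 4.90, 0.0376 and 7.55 in circulating, 0.921, 9.56 and 2.31 in irradiated and 26.5, 27.9 and 28.8 in the endogenous cells. Endogenous libraries stood close together and above all 6 others, among which circulating and irradiated libraries were mixed. Sema3d had the largest difference between irradiated and endogenous cells of the 10 genes (log2 difference -2.82 with SE 0.76; adjusted p = 0.12 in limma). Between circulating and irradiated cells its log2 difference was -0.12, and it turned to 0.80 without circulating replicate 2, to 0.57 without irradiated replicate 2 and to 0.08 with sample weights.

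Receptors follow. Axl encodes a receptor tyrosine kinase of the TAM family, whose ligand is Gas6 (chromosome 7 from 25757273 to 25788705, minus strand, ENSMUSG00000002602). It was 8.03, 6.42 and 0.0849 in circulating, 6.35, 5.99 and 8.18 in irradiated and 34.3, 25.3 and 24.4 in the endogenous cells. Circulating replicates 1 and 2 fell within the range of the irradiated libraries, and only replicate 3, with 1 estimated count, was far below. Without that library the log2 difference between circulating and irradiated cells turned from -0.90 to 0.07. Irradiated and endogenous libraries did not overlap (log2 difference -1.88 with SE 0.65; adjusted p = 0.20 in limma).

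Lhcgr encodes the receptor for luteinizing hormone and chorionic gonadotropin, best known from the gonads (chromosome 17 from 88716481 to 88791990, minus strand, ENSMUSG00000024107). Its values were 0.248, 0.188 and 1.95 in circulating, 9.50, 3.67 and 5.80 in irradiated and 5.51, 9.73 and 11.5 in the endogenous cells. Irradiated and endogenous ranges overlapped (log2 difference -0.46 with SE 0.47; adjusted p = 0.71 in limma). The circulating libraries held 5, 2 and 34 estimated counts, all below both groups.

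Of the transporters, Abcg3 encodes an ATP-binding cassette protein of the G family, related to the stem cell efflux pump Abcg2 (chromosome 5 from 104935057 to 104982718, minus strand, ENSMUSG00000029299). It was 0.926, 0.113 and 11.2 in circulating, 15.1, 15.2 and 8.01 in irradiated and 44.5, 45.4 and 24.8 in the endogenous cells. Circulating replicate 3 fell within the irradiated range while the other circulating libraries held 20 and 1 estimated counts. All endogenous libraries stood above all irradiated ones (log2 difference -1.51 with SE 0.71; adjusted p = 0.36 in limma).

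Slc16a9 encodes a member of the monocarboxylate transporter family (chromosome 10 from 70245100 to 70285968, plus strand, ENSMUSG00000037762). It was 1.45, 0.0376 and 1.73 in circulating, 9.18, 8.52 and 6.75 in irradiated and 8.36, 11.6 and 8.02 in the endogenous cells. Irradiated and endogenous libraries overlapped, with the smallest difference of the 10 genes (log2 difference -0.17 with SE 0.41; adjusted p = 0.89 in limma). Circulating libraries lay below all others.

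Among the nuclear proteins, Tle2 encodes a Groucho-type corepressor, which has no DNA-binding domain and is recruited by transcription factors (chromosome 10 from 81574561 to 81590845, plus strand, ENSMUSG00000034771). It was 9.64, 4.09 and 1.84 in circulating, 10.3, 14.4 and 13.0 in irradiated and 50.7, 33.4 and 23.0 in the endogenous cells. The groups were ordered without overlap, although circulating replicate 1 came close to the irradiated libraries. Irradiated cells did not pass the test against endogenous cells (log2 difference -1.38 with SE 0.46; adjusted p = 0.18 in limma).

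Nap1l3 encodes a member of the nucleosome assembly protein family (chromosome X from 122394565 to 122397401, minus strand, ENSMUSG00000055733). It was 8.08, 0.113 and 0.0283 in circulating, 10.4, 6.01 and 3.73 in irradiated and 14.1, 10.1 and 15.4 in the endogenous cells. Circulating replicate 1, with 178 estimated counts, lay within the irradiated range, and the other circulating libraries held 1 and 0 counts. Irradiated replicate 1 reached the endogenous range (log2 difference -0.96 with SE 0.72; adjusted p = 0.60 in limma).

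Npdc1 encodes the membrane protein named neural proliferation, differentiation and control 1 (chromosome 2 from 25399351 to 25409494, plus strand, ENSMUSG00000015094). It was 3.55, 0.339 and 1.39 in circulating, 5.08, 7.20 and 3.81 in irradiated and 28.6, 11.6 and 14.9 in the endogenous cells. The groups were again ordered without overlap, with circulating replicate 1 just under irradiated replicate 3 (log2 difference of irradiated against endogenous cells -1.54 with SE 0.49; adjusted p = 0.17 in limma). The library chemistry does not mark strand, and of the 10 genes 6 overlap another annotated gene. Among these 6, Sema3d shares 3619 bases with Gm42909 on its own strand (mean values 0.538, 0.999 and 1.74 in circulating, irradiated and endogenous libraries, and the only tested gene among the overlaps), Npdc1 1971 bases with Entpd2 on its own strand and Pdgfd 7114 bases with Ddi1 on the opposite strand, so reads in those stretches could come from either gene.

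Whether irradiated cells lay between the other groups was then asked for each gene. The irradiated mean lay between the circulating and endogenous means for all 10 genes on the log2(value + 1) scale, but at very different places. Set on a scale where the circulating mean is 0% and the endogenous mean 100%, irradiated cells stood at 4.1% for Sema3d, 32.3% for Axl, 46.6% for Npdc1 and 49.0% for Tle2. They stood at 58.8% for Abcg3, 64.3% for Nap1l3, 73.7% for Pdgfd, 78.8% for Bgn, 81.8% for Lhcgr and 93.0% for Slc16a9. Such places depend on the scale and were not computed from plain means. By plain means, Abcg3 was at 10.7% of its endogenous mean in circulating and 33.4% in irradiated cells, so nearer to circulating cells. The irradiated mean of Sema3d thus stood next to the circulating one, and that of Slc16a9 next to the endogenous one. The median place was 61.6%, beside 54.7% for the 445 other genes called lower in circulating than in endogenous cells.

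Being between is the usual place for genes of this kind. Of the 445 other genes called lower in circulating cells, 92.1% had the irradiated mean in between, and of all tested genes 49%. Without circulating replicate 2 or irradiated replicate 2 the count among the 10 genes was 9, with Sema3d outside, and without circulating replicate 3 it was 9, with Axl outside. A full order without overlap, circulating below irradiated below endogenous, held for 3 genes (Npdc1, Tle2 and Bgn). That order held for 0.973% of all tested genes and for 22.2% of the 445 others, and since the choice fixed the outer groups, only the latter share is a like comparison. Every circulating library lay below every irradiated library in 6 genes (Pdgfd, Npdc1, Tle2, Bgn, Slc16a9 and Lhcgr), against 9.26% of tested genes, a count that the choice also favours. In the whole table, circulating against irradiated cells gave few calls, a count that rested on 1 library: 0.00726% of tested genes were called lower and 0.0218% higher (0.029% in all), and 6.51% were lower at an unadjusted p under 0.05. The 4 calls became 134 (68 higher and 66 lower) without circulating replicate 1, and 3 to 9 without any other 1 library.

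**Figure D2:**
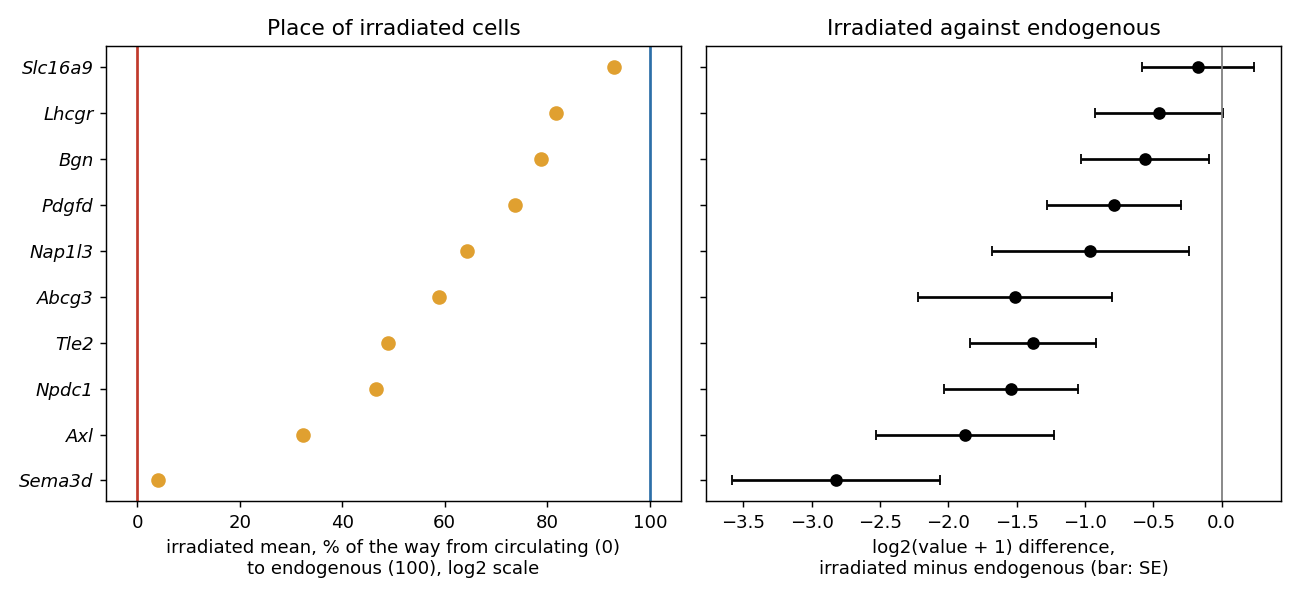
The left panel places the irradiated mean of each gene on the way from the circulating mean (0%, red line) to the endogenous mean (100%, blue line) on the log2 scale. The right panel gives the log2 difference of irradiated minus endogenous cells with its SE (n = 3 per group); the panels share the irradiated and endogenous means, and the places run from 4.1% (Sema3d) to 93.0% (Slc16a9).

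Irradiated against endogenous cells is the comparison without circulating libraries, although the endogenous libraries also took part in the choice of the genes, which favours lower values in irradiated cells. All 10 genes had a lower mean in irradiated cells, with a median log2 difference of -1.17 beside -0.55 for the 445 others and -0.009 over all tested genes. In limma's test with Benjamini-Hochberg adjustment over all 13771 genes, 0 of the 10 passed, where 0.131% of tested genes and 1.8% of the 445 others were called lower. At an unadjusted p under 0.05 in limma, 4 were lower (Sema3d, Npdc1, Tle2 and Axl), where 5.49% of tested genes were. The like share among the 445 others was not computed for this threshold. Groups did not overlap in 6 genes (Abcg3, Sema3d, Npdc1, Axl, Tle2 and Bgn), where 12.5% of tested genes had all irradiated libraries below all endogenous ones and 56.6% of the 445 others did. With limma-voom on the estimated counts 0 passed as well.

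The count depended on how the spread was shared, since the circulating libraries varied most. Fitted on these 2 groups alone, 5 of 10 passed (Axl at adjusted p = 0.0039, Sema3d at 0.016, Abcg3 at 0.026, Tle2 at 0.028 and Npdc1 at 0.038), where 1.95% of tested genes were called lower. With sample weights 4 passed (Sema3d, Axl, Npdc1 and Tle2), where 2.05% were. Of the 10 genes, Sema3d alone passed without circulating replicate 2 (adjusted p = 0.033, background 0.329%) and Axl alone without circulating replicate 3 (0.011, background 0.402%). These backgrounds are shares of all tested genes, and the choice of the 10 genes favours lower values in irradiated cells. The like share, among the 445 other genes called lower in circulating cells, was 1.8% in the main fit and was not computed for these fits. Pdgfd, Nap1l3, Bgn, Slc16a9 and Lhcgr passed under none of the 17 alternatives.

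Spread among the circulating libraries differed from gene to gene. The median SD of the 10 genes on the log2(value + 1) scale was 0.98 in circulating, 0.44 in irradiated and 0.39 in the endogenous cells, beside 0.38, 0.21 and 0.26 over all tested genes. The latter cover genes of every level, and the spread of genes as low as these 10 was not computed. No single circulating library held the remaining transcripts of all 10. Circulating replicate 1 had the highest circulating value in 5 genes (Pdgfd, Npdc1, Axl, Tle2 and Nap1l3) and replicate 3 in the other 5 (Abcg3, Sema3d, Bgn, Slc16a9 and Lhcgr). Replicate 2 had the lowest value in 6 genes and the highest in 0. Replicate 3 was the lowest for Axl, Tle2 and Nap1l3, and replicate 1 for Bgn. Summed over the 10 genes, the circulating libraries held 836, 154 and 524 estimated counts, the irradiated libraries 1573 to 2270 and the endogenous libraries 4384 to 6093.

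Counts of 0 were met in 1 gene in circulating replicate 1 (Bgn), in 3 genes in replicate 2 (Pdgfd, Sema3d and Slc16a9) and in 1 gene in replicate 3 (Nap1l3), and in 0 genes in the other 6 libraries. Among 3940 other tested genes whose endogenous mean lay in the same range (8.93 to 38.3), 0%, 0.711% and 0.152% were at 0 counts in circulating replicates 1, 2 and 3. Values under 1 were found in 3, 8 and 2 of the 10 genes in the same libraries, and in 0.381%, 2.89% and 1.02% of the others. The 10 genes were chosen for low circulating values, whereas the 3940 others were matched on the endogenous mean alone. The choice thus favours counts of 0 and values under 1 among the 10, and the contrast is not a result. Circulating replicate 2 thus had both the lowest depth and the most genes at 0. The part of depth in these values was not tested.

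Relatives and partners of the 10 genes were examined next. For 9 of the genes a list of family members and partners was drawn up, without the genes themselves. Of the 45 tested entries in the 9 lists, 3 were lower, 1 was higher and 41 did not pass between circulating and endogenous cells, where 3.3% of tested genes were lower and 5.33% higher; 4 of 45 is near the share of all tested genes called in either direction, 8.63%. Abcg2, the efflux pump related to Abcg3, was 85.8 ± 9.69 in circulating and 133 ± 23.2 in endogenous cells (SD, n = 3; log2 difference -0.61 with SE 0.16; adjusted p = 0.037 in limma). Plxna3, a plexin that transmits class 3 semaphorin signals, was 1.74 ± 1.10 against 7.96 ± 4.20 (log2 difference -1.68; adjusted p = 0.044 in limma). Runx2, a transcription factor that binds Groucho corepressors, was 18.4 ± 13.5 against 47.2 ± 8.26 (log2 difference -1.53; adjusted p = 0.044 in limma). Bsg, the chaperone of monocarboxylate transporters, was higher at 256 ± 23.4 against 184 ± 22.8 (log2 difference 0.48; adjusted p = 0.042 in limma). These calls lay close to the threshold: leaving out 1 library at a time, Abcg2 kept its call in 1 of 9 fits, Runx2 in 1 of 9, and Plxna3 and Bsg in 2 of 9, with adjusted p up to 0.14.

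The named partners of the other genes did not pass. Pdgfrb, the receptor of Pdgfd, was 29.3 ± 10.5, 35.8 ± 13.6 and 50.7 ± 12.4 across circulating, irradiated and endogenous cells (SD, n = 3). Of the 4 listed TAM genes 2 were tested: Pros1 was 14.3 ± 6.62, 11.2 ± 6.12 and 15.2 ± 13.1, and Gas6, the ligand of Axl, named after its values were seen, 5.39 ± 2.85, 6.64 ± 3.65 and 13.1 ± 2.24. Nap1l1, the most abundant relative of Nap1l3, was 389 ± 51.3, 379 ± 7.03 and 311 ± 21.3. Among proteoglycans related to Bgn, Chad was 2.01 ± 1.72, 1.75 ± 0.498 and 6.31 ± 2.13. Lgr5, the 1 tested relative of Lhcgr, was 0.647 ± 0.931, 1.72 ± 2.08 and 2.16 ± 2.17. In irradiated against endogenous cells, 0 of the 45 passed limma's adjusted test.

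**Figure D3:**
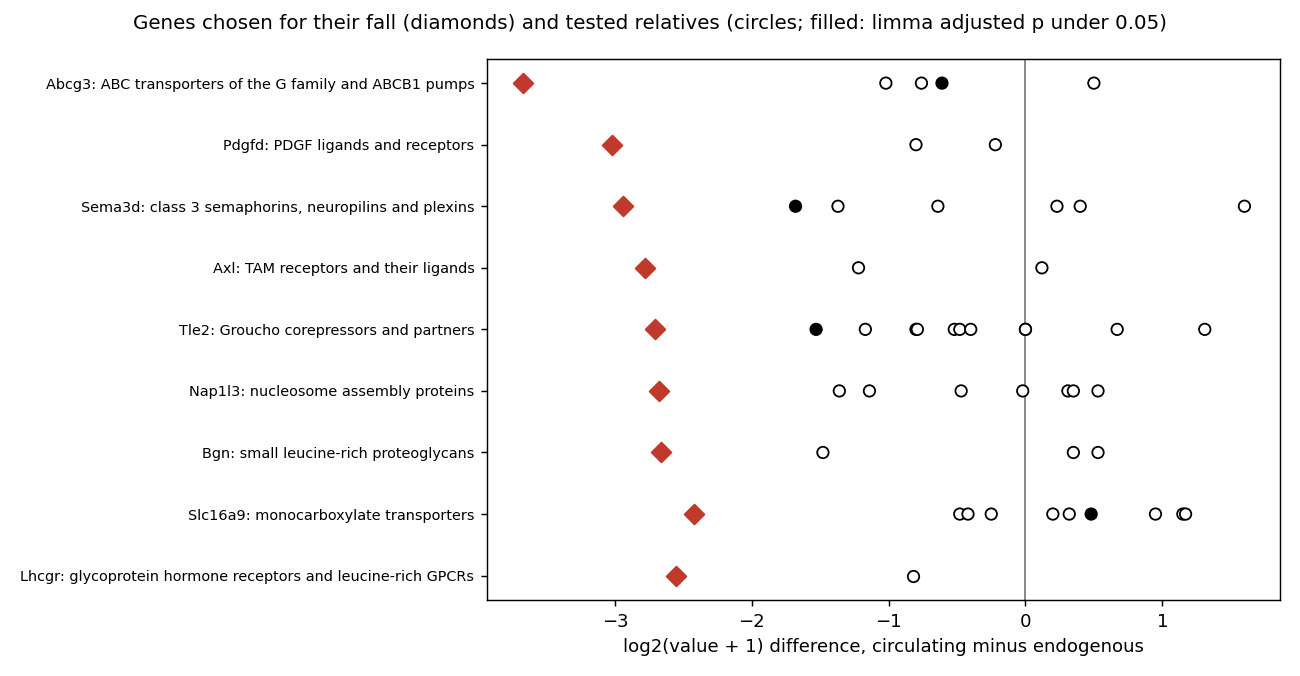
The horizontal axis gives the log2(value + 1) difference of circulating minus endogenous cells, with the 9 genes that have a list as red diamonds and their tested relatives as circles, filled where the limma adjusted p was under 0.05. The diamonds were chosen for their falls; of the circles, 3 filled ones lie below 0 (Abcg2, Plxna3 and Runx2) and 1 above (Bsg).

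Neighbours on the chromosome were examined next. The nearest tested gene on each side was taken for every one, 20 genes in all, and 0 passed limma's adjusted test in circulating against endogenous cells (median log2 difference -0.18) or in irradiated against endogenous cells (-0.16). Of all tested genes 8.63% and 0.603% were called in these comparisons, so a count of 0 among 20 says little. The gaps ran from 59 bases (Tle2 to Tle6) to 7833736 bases (Nap1l3 to Klhl4), so some of these genes are not close. Abcg3 lies between Zfp951 (log2 difference of circulating minus endogenous cells -0.43) and Gbp8 (-1.14). Tle2 lies among genes of its own family, 59 bases before Tle6, whose mean was 10.3 in circulating, 17.0 in irradiated and 24.5 in the endogenous cells (log2 difference -1.17, limma adjusted p = 0.087), and 8199 bases after Aes (-0.40, 0.19).

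Genes associated with haematopoietic stem cells were also examined. Of 28 tested genes on that list, 12 were lower, 0 higher and 16 short of the threshold when circulating cells were set against endogenous ones (median log2 difference -0.86, beside -0.041 over all tested genes). Ndn and Hlf, a growth suppressor and a stem cell transcription factor, had log2 differences of -3.31 and -1.82 in circulating cells. The list's count of 12 was 6 without endogenous replicate 1, 7 without endogenous replicate 2 and 7 with only these 2 groups fitted. Genes of myeloid progenitors went the other way: 10 of 16 were higher and 0 lower in circulating cells, and 6 higher and 0 lower in irradiated cells (medians 2.79 and 1.87). Of all tested genes, 3.3% were lower and 5.33% higher in circulating than in endogenous cells. In irradiated against endogenous cells these shares were 0.131% and 0.472%. Elane, neutrophil elastase, was 3430 ± 1790, 1690 ± 522 and 246 ± 81.1 across circulating, irradiated and endogenous cells (SD, n = 3). The count in irradiated cells was 0 without irradiated replicate 1 or 3 or endogenous replicate 1 or 2, 2 without endogenous replicate 3, 3 with limma-voom, and 11 without circulating replicate 1 or with only these 2 groups fitted.

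Some of the 10 genes are also known from stromal cells and macrophages (Bgn, Pdgfd and Sema3d from the former, Axl from the latter), so markers of those cells were examined. Of 18 stromal markers 6 were tested, and 0 passed in circulating or irradiated against endogenous cells. Of all tested genes 8.63% and 0.603% were called in these comparisons, so a count of 0 among 6 says little. In circulating against endogenous cells the count was 2 without circulating replicate 1 (1 higher and 1 lower in circulating cells). It was 1 with a pseudocount of 0.5 or without a filter (higher in circulating cells), and 1 with the replicate block. Their summed values were 11.9 to 26.5 in circulating, 11.6 to 16.4 in irradiated and 24.6 to 55.1 in endogenous libraries. The highest stromal marker was Postn, at 5.86 ± 5.72, 3.95 ± 3.45 and 24.7 ± 18.9 (SD, n = 3). Fn1, Sparc and Thy1 also had lower means in irradiated than in endogenous cells (log2 differences -0.73, -0.66 and -0.19). Col1a2, at 2.64 ± 1.89, 1.78 ± 0.824 and 0.215 ± 0.18, and Col5a1, at 1.95 ± 1.87, 2.27 ± 1.35 and 0.913 ± 0.069, had higher ones. Stromal sums, of which Postn was the largest part in endogenous libraries, were higher in endogenous than in irradiated libraries. The part of stromal cells in the values of Bgn, Pdgfd and Sema3d was not tested. Col1a1, Col3a1, Lepr and Cxcl12, the defining markers of marrow stroma, were not analysed here. Of 14 macrophage markers 10 were tested and 0 passed in the same comparisons, which is also near the shares of 8.63% and 0.603%. The count in circulating against endogenous cells was 1 without circulating replicate 1 or 2, with a minimum value of 2 or when scaled by library size alone. In irradiated against endogenous cells it was 2 with sample weights and 3 with only those 2 groups fitted. Those fits called 897 and 757 of the 13771 tested genes. They summed to 123 to 320 in circulating, 112 to 144 in irradiated and 142 to 194 in endogenous libraries, so that the ranges of circulating and endogenous libraries overlapped. Vcam1, the most abundant of them, was 81.2 ± 49.6, 34.0 ± 4.50 and 32.2 ± 3.24. In irradiated minus endogenous cells the median log2 difference of the 10 tested was -0.33. It was -1.20, -1.32 and -1.31 for C1qa, C1qb and C1qc, -0.75 for Hmox1, -0.55 for Cd5l and -0.11 for Slc40a1. For Adgre1, Cd68, Siglec1 and Vcam1 it was 0.01 to 0.08. The part of macrophages in the values of Axl was not tested.

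Endothelial markers summed to 218 to 317, 305 to 379 and 361 to 395 in the same order, and 1 of 7 tested was lower in circulating cells (Pecam1, a call that ended when any 1 library was left out). Neutrophil genes had 2 of 13 lower in circulating cells (Mmp8 and Retnlg), and megakaryocyte genes 1 of 9 (Plek). Erythroid genes had 1 of 12 higher (Klf1), dendritic cell genes 2 of 7 (Clec9a and Xcr1) and T cell genes 0 of 9. Beside these counts, 3.3% of all tested genes were lower and 5.33% higher (8.63% in either direction). Leaving out 1 library at a time, Retnlg kept its call in 1 of 9 fits, Klf1 and Clec9a in 2 of 9, and Mmp8, Plek and Xcr1 in 7 of 9. Retnlg also lost it with a pseudocount of 0.5 or without a filter. Without circulating replicate 1 the counts of called genes were 4 for neutrophil, 2 for megakaryocyte, 5 for erythroid, 5 for dendritic cell and 4 for T cell genes. Without endogenous replicate 1 or 2 they were 0 in all 5 lists. In irradiated against endogenous cells these lists and the endothelial list had 0 called genes. Fitted on these 2 groups alone, they had 0 for neutrophil, 2 for megakaryocyte, 3 for erythroid, 2 for dendritic cell, 1 for T cell and 1 for endothelial genes. That fit called 757 of the 13771 tested genes.

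Across the 9 libraries, the genes most like the mean profile of the 10 were Rhoh (Pearson r = 0.979), Ndn (0.972), Caprin2 (0.970), Peg13 (0.961) and Prkag2 (0.961), out of 10359 genes searched. The libraries share their groups, so these r values describe a common order of groups. The mean standardised profile was -0.72, -1.46 and -0.91 in circulating, 0.18, 0.18 and -0.01 in irradiated and 1.00, 0.93 and 0.81 in endogenous libraries. Rhoh, a haematopoietic GTPase, went from 156 ± 4.96 in endogenous through 124 ± 9.20 in irradiated to 95.8 ± 3.98 in circulating cells (SD, n = 3), a shallower slope than that of any of the 10. Prkag2, a subunit of AMP-activated kinase, went from 67.0 ± 7.46 through 53.1 ± 1.65 to 29.3 ± 3.12.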

How the data were processed

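The deposited table gives 9 libraries by 14461 Ensembl genes. Per the labels' protocols, RNA of sorted cells was amplified by SMART-Seq v4 before Nextera XT library preparation, a chemistry that keeps no strand. RSEM 1.3.1, CASAVA, limma and the build mm10 are listed, without their roles, per the submitters' processing notes. How the values were scaled and filtered is not stated there. The deposited values are a normalised signal: in every column they equal (a number with 2 decimals + 0.5) times a constant of that column, from which estimated counts were recovered.

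Symbols matched 14405 of the genes. Limma-trend (limma 3.58.1, R 4.3.3) with robust moderation was fitted on log2(value + 1) to all 9 libraries without covariates, over 13771 genes with a value of at least 1 in at least 3 libraries. Benjamini-Hochberg adjustment ran over all of them (threshold 0.05). The pseudocount understates changes of low genes. The 10 genes, the gene lists and the tests were chosen with earlier results of these data known, so comparisons with circulating cells give no test for the 10 genes. Named were the 10 genes, up to 3 called genes of each list (otherwise the most abundant), the 5 most similar profiles and the nearest tested neighbours; some results of the marker lists are not reported here. Positions are from GENCODE M21 (GRCm38), promoter sequences from RefSeq (GRCm38.p6; 10 of 10 matched). Alternatives were another pseudocount, other filters, leaving out each library, a replicate block, sample weights, fits of 2 groups, scaling by library size and limma-voom.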

Additional observations from a re-analysis of the deposited data

How the results depend on the processing

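Leaving out 1 library at a time gave 262 to 2230 calls in circulating against endogenous cells (1189 with all), 3 to 134 in circulating against irradiated cells (4 with all), 6 to 265 in irradiated against endogenous cells (83 with all), 0 to 1 of the 10 genes lower in irradiated against endogenous cells and 9 to 10 with the irradiated mean between. The count of genes in between uses unweighted means and has no value in fits of 2 groups. The lowest counts came without endogenous replicate 1 (262) and without irradiated replicate 3 or endogenous replicate 1 (3 and 6 each), and the highest without circulating replicate 1. With sample weights the calls were 494 and 897 and with only the 2 groups compared 239 and 757, for circulating and irradiated against endogenous cells, and 4 and 5 of the 10 genes were lower in irradiated cells. In circulating against irradiated cells, 9 genes were called with a minimum value of 2, 11 when scaled by library size alone and 8 with limma-voom. Under library-size scaling the median gene moved by -0.18 in circulating and -0.12 in irradiated against endogenous cells and turned 734 higher and 455 lower calls in the former into 337 and 816; the 10 genes then ran from -3.84 to -2.56 and from -2.94 to -0.29.

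A replicate block gave 1147, 9 and 105 calls in the 3 comparisons, and 0 of the 10 genes passed. Same-numbered libraries deviated together weakly at most (r of -0.02 to 0.18, beside -0.17 to 0.11 for differently numbered ones). The main fit did not take the labels' numbers as pairs, and whether they are pairs is not stated. Circulating and irradiated libraries also share a code in their titles (r of 0.05, 0.03 and 0.18); with that code as a replicate block in those 6 libraries alone, chosen after seeing the data, 2 genes were called. Of the alternative log2 differences between circulating cells and another group, 4 changed sign: Sema3d to 0.80, 0.57 and 0.08 and Axl to 0.07, all against irradiated cells (leave-one-out ranges -0.72 to 0.80 and -1.46 to 0.07), and 10 moved by more than 1 SD, all to larger falls with limma-voom, whose smaller offset sets values near 0 lower. In irradiated against endogenous cells, 159 of 170 alternative values kept their side of the threshold, 11 passed it and 0 changed sign.

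Depth limits the values near 0 in circulating replicate 2, where 3 counts are worth 0.23. With 3 libraries per group, only large differences between irradiated and endogenous cells pass an adjusted test.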
